A study of Drosophila melanogaster with 4 samples.

Results

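The UDP-glycosyltransferase (Ugt) genes were examined in whole adult female Drosophila melanogaster after topical treatment with juvenile hormone III, abbreviated JH III, an insect hormone that is a sesquiterpenoid. A gene was taken as a member when a probe set carried 1 gene symbol in the platform annotation and that symbol began with Ugt and a number. Of 13966 probe sets other than controls, 35 met this rule, and they stood for 33 of the 10843 genes named in this way. The probe set with the highest mean over all arrays represented each gene. All 33 symbols matched a gene of the RefSeq table (assembly Release 6 plus ISO1 MT) by Entrez number. That table lists 35 Ugt symbols, of which the other two, Ugt50B3 and Ugt35D1, were not analysed here.

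The flies were of the y, w strain, which carries mutations for yellow body and white eyes, and all groups shared it. All were taken off yeast at the start of adult life and kept without it for 5 days. The JH III group received 0.1 µl of 187 mM JH III in acetone on the body surface, which is 18.7 nmol per fly, and the acetone group received the same volume of acetone alone. Flies were frozen 12 hours later, and each of the 4 RNA samples, 2 per treatment, came from 30 pooled females and was measured on 1 Affymetrix DrosGenome1 array. Such a pool of whole bodies gives no level for a single tissue. Fewer cells of a type and less RNA per cell cannot be told apart in it.

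UDP-glycosyltransferases are enzymes of the endoplasmic reticulum membrane that transfer a sugar from a UDP-sugar, in insects mostly glucose from UDP-glucose, to small fat-soluble molecules. The conjugates are more soluble in water and can be exported and excreted. In insects the family is known for work on plant toxins, insecticides, odorants, pigments and hormones, and many members are active in the fat body, gut, Malpighian tubules or antennae. Several lie side by side in the genome as products of gene duplication, and probe sets of such close relatives may share some signal.

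Most members gave weak signals. The level that separates signal from background was set on each array at the 95th percentile of 23 control probe sets for transcripts that were not added to the samples. This level was 369 and 240 on JH III replicates 1 and 2 and 139 and 295 on acetone replicates 1 and 2. Above it lay 10 and 13 of the 33 members on the JH III arrays and 16 and 9 on the acetone arrays. The acetone array with 16 is the one with the lowest control level. On both arrays of at least 1 treatment, 11 members (33.3%) exceeded it, against 51.2% of all named genes, 43.4% of 83 cytochrome P450 genes and 58.8% of 34 glutathione S-transferase genes. No test was made of these shares. On all 4 arrays, 4 members exceeded the level (Ugt35B1, Ugt37D1, Ugt49B1 and Ugt301D1), and 13 exceeded it on none.

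**Figure D1:**
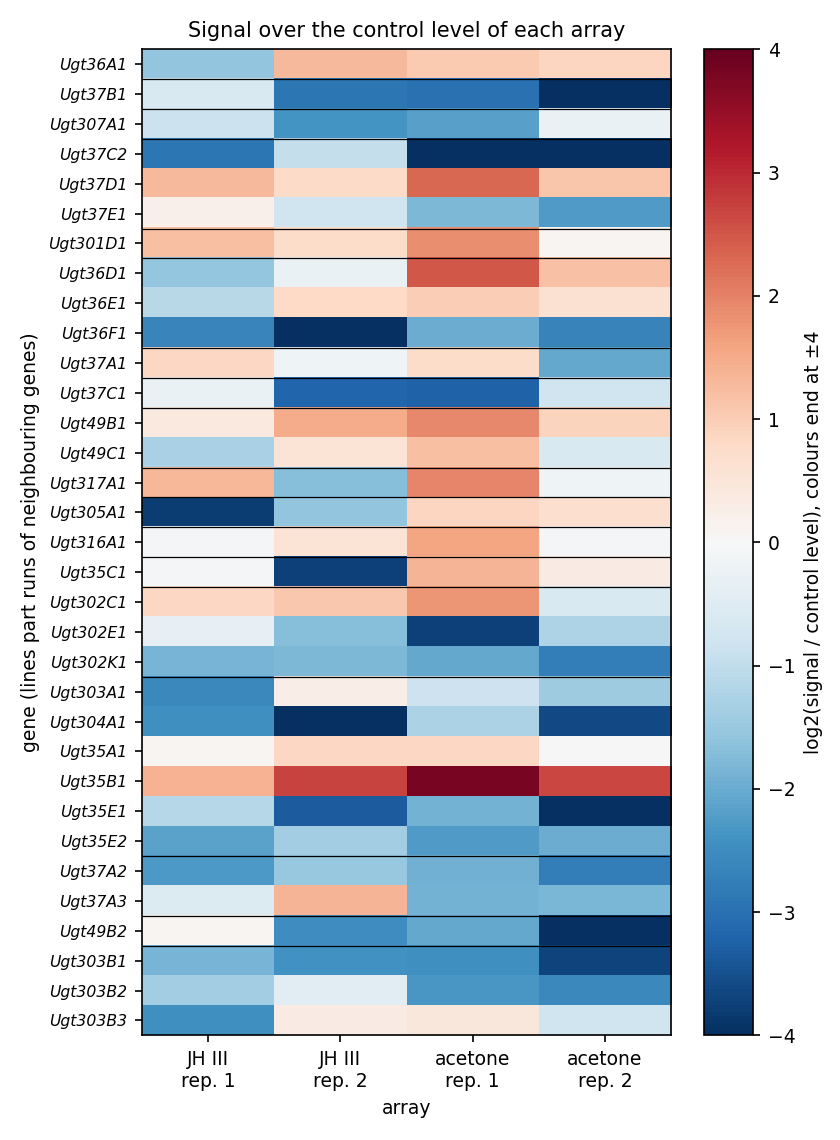
Signal of the 33 Ugt genes on each array, as log2 of the signal over that array's control level (red above, blue below, white at the level). Genes are ordered by runs of neighbouring genes in the RefSeq table, parted by lines. Ugt35B1 is the member farthest above its control level on acetone replicate 1, and 13 genes are blue on all 4 arrays.

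The arrays differed in ways that touch these values. The hybridisation control CreX, which is added in a fixed amount and was scaled with the rest of the array, gave 470523 on JH III replicate 1 and 77089 on acetone replicate 1, the highest and the lowest of the 4 arrays. For GAPDH the signal at the 3' end over that at the 5' end was 2.32 and 5.75 on the JH III arrays and 15.5 and 10.2 on the acetone arrays, and for eIF-4a this ratio was 18.3 and 18.9 against 75.0 and 46.8. The 25th percentile of all signals was 99.6 and 88.9 on the JH III arrays and 62.4 and 78.0 on the acetone arrays, so that weak signals stood higher in the hormone group. The median difference of all 10843 named genes was 0.12 on the log2 scale, and the differences below were not corrected for that shift. The part of these features in the results was not tested.

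The labelled sex and the presence of several tissues in the whole bodies were checked with marker lists. On both arrays of at least 1 treatment, among the markers measured, 7 of 8 fat body markers, 5 of 5 midgut markers, 3 of 4 Malpighian tubule markers, 6 of 6 ovary markers, 2 of 2 head and eye markers and 2 of 4 antennal markers were above the control level. Of 7 male reproductive tract markers, 4 were below it on all arrays (Acp26Aa, Acp36DE, Acp62F and dj), and Mst87F and Mst84Da were above it on both arrays of 1 treatment. The last, SP, was above it on 1 array of each treatment. Summed male marker signals were 1742 and 1284 on the JH III arrays and 1066 and 1091 on the acetone arrays. The 5 midgut markers, which mark a tissue where several Ugt genes are known to be active, summed to 75136 and 124852 on the JH III arrays and 175872 and 114548 on the acetone arrays. All 5 had negative differences, with a median of -0.80, and limma called 0 of them. Mal-A1 (-1.46) and alphaTry (-0.96) had an unadjusted limma p under 0.05, where 7.29% of all probe sets tested did. Signals of Mal-A1 were 1724 and 2536 with JH III and 11375 and 3030 with acetone. For alphaTry, at 8738.5 and 24393 against 43452 and 18764, the groups overlapped. In both genes acetone replicate 1 was the highest array. Mal-A1 was called without acetone replicate 2 and in a crossed replicate block chosen after seeing the data. The 8 fat body markers summed to 70620 and 113960 with JH III and to 114444 and 99616 with acetone, and Lsd-1 (-0.75) had such a p. Of the 6 ovary markers 4 had positive and 2 negative differences, and limma called 0. Cp15 (1.77) and Cp16 (-1.48) had such a p in opposite directions. Cp15 gave 4261 and 2757 with JH III and 5747 and 99.3 with acetone. It was also called in the crossed replicate block and with the chip lot as a block. Cp15 without acetone replicate 1 and Cp18 without acetone replicate 2 were called too, in fits that leave acetone a lone array. The part of these tissues in the Ugt values was not tested.

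No Ugt gene passed the test between treatments over the whole array. Signals were compared as log2(signal + 83), where 83 is the 25th percentile of all values, so that differences of weak genes are understated. The test was limma's moderated test, two-sided, with Benjamini-Hochberg adjustment over the 10475 probe sets that remained once the 25% with the lowest mean signal were left out, and with a threshold of 0.05. Of the 33 members 22 passed that filter and were tested. By limma 0 rose and 0 fell, where 0.162% of all probe sets tested were called in either direction, and the lowest adjusted p among the members was 0.464. With no adjustment, 3 members had a limma p under 0.05, 1 higher (Ugt37A3) and 2 lower (Ugt36D1 and Ugt305A1), where 3.54% of all probe sets tested were higher and 3.75% lower. The t-test that the labels name also called 0 members after adjustment, and 2, Ugt35A1 and Ugt36D1, had an unadjusted p under 0.05 by it. With 2 arrays against 2 an exact two-sided permutation test cannot go below p = 0.333, so none was run on single genes.

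The member with the smallest p was Ugt36D1, a glycosyltransferase whose substrates are not stated in the sources used here. Its signal was 125 and 199 on JH III replicates 1 and 2 and 776 and 673 on acetone replicates 1 and 2. The groups did not overlap, and both JH III arrays lay below the control level while both acetone arrays lay above it. Measured signals of Ugt36D1 were at least 2.43-fold lower with JH III against that level, a bound that leaves out the spread between arrays. The log2 difference of Ugt36D1 was -1.73 ± 0.62 (SE, 95% interval -2.96 to -0.50, limma adjusted p = 0.464). Over 15 alternatives its difference lay between -2.19 and -1.23 and its adjusted p between 0.181 and 1.0.

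The genes next to Ugt36D1 gave smaller differences. Ugt36F1, Ugt36D1 and Ugt36E1 follow each other in the RefSeq table with no other protein-coding gene between them. Ugt36E1 had signals of 170 and 420 with JH III and of 275 and 448 with acetone, so that the groups overlapped (log2 difference -0.29 ± 0.66 SE, 95% interval -1.61 to 1.02). Ugt36F1 was below the control level on all 4 arrays, with signals of 59.1 and 14.9 against 35.3 and 46.2. The other gene of the subfamily, Ugt36A1, was formerly called Dot (Dorothy), and its enhancer is known to be active in blood cells and pericardial cells of the fly. Its signal was 124 and 589 with JH III and 286 and 537 with acetone, and JH III replicate 1 alone lay below the control level (-0.36 ± 0.65 SE). All 4 differences of the subfamily were negative, but without JH III replicate 1 only 2 of them were, with Ugt36A1 at 0.49 and Ugt36E1 at 0.20, and without JH III replicate 2 or acetone replicate 2 it was 3 of 4.

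Ugt305A1 was the other member with a lower signal at an unadjusted p under 0.05, and its probe sets disagreed. The brighter one gave 26.3 and 80.6 with JH III, both below the control level, and 254 and 468 with acetone, both above it. The groups did not overlap. Against the control level the measured signal was at least 1.16-fold lower with JH III, with the spread between arrays left out. The log2 difference was -1.69 ± 0.82 (SE, 95% interval -3.32 to -0.06, limma adjusted p = 0.669). The dimmer one gave 139 and 159 with JH III and 81.8 and 141 with acetone, was below the control level throughout, and overlapped between groups (0.27 ± 0.85 SE). By their Affymetrix suffixes the first was designed with some of the probe selection rules relaxed and the second from probes that can match more than 1 transcript.

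Ugt35C1, formerly Ugt86Dd, is known for a part in nicotine resistance of Drosophila larvae. Its signal was 347 and 18.1 with JH III and 359 and 369 with acetone. The groups did not overlap, but JH III replicate 1 was close to the acetone arrays and replicate 2 far below them. The difference was -1.10 ± 0.76 (SE, limma adjusted p = 0.772), and it was -0.06 without JH III replicate 2 and -2.14 without JH III replicate 1. Against the control level the measured signal was at least 1.22-fold lower with JH III, with the spread between arrays left out. The 95% interval of the difference over all arrays, -2.62 to 0.41, includes a rise.

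Ugt35B1, known for its transcripts in the antenna, was 1 of the 4 members above the control level on every array. Its signal was 967 and 1570 with JH III and 1926 and 1897 with acetone, so that both JH III arrays were lower. The difference was -0.60 ± 0.38 (SE, 95% interval -1.36 to 0.16, limma adjusted p = 0.767). A second probe set of the gene was below the control level on all arrays, at 133 and 95.5 with JH III and 30.6 and 71.7 with acetone, and lay the other way (0.57, below the filter and not tested). Of the 4 antennal markers measured, 3 had negative differences, with a median of -0.61 over the 4. Only 1 of them, Obp83b, was above the control level on all arrays, and the part of antennal tissue in these values was not tested.

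Ugt35A1 and Ugt302C1 were higher on both JH III arrays than on both acetone arrays, and neither passed. Ugt35A1, the next gene to Ugt35B1 in the RefSeq table, had signals of 392 and 428 with JH III and of 250 and 295 with acetone (log2 difference 0.47 ± 0.63 SE, limma adjusted p = 0.897). Ugt302C1, formerly Ugt86Da, had 660 and 511 against 470 and 193 (0.77 ± 0.58 SE, limma adjusted p = 0.798). For both genes the second acetone array was below the control level and the other 3 arrays were above it.

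For the remaining 3 genes that were clearly measured the treatments overlapped. Ugt301D1 gave 847 and 397 with JH III and 510 and 310 with acetone (0.47 ± 0.55 SE, 95% interval -0.63 to 1.57). Ugt37D1, formerly Ugt36Bc, gave 910 and 409 against 681 and 633 (-0.08 ± 0.49 SE, 95% interval -1.07 to 0.90). Ugt49B1 gave 481 and 676 against 530 and 550 (0.07 ± 0.51 SE, 95% interval -0.95 to 1.09), and its sign turned under quantile normalization and median centring. Each of these 3 intervals includes 0 and does not leave out a rise of 0.90 or a change of -0.63 on the log2 scale.

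**Figure D2:**
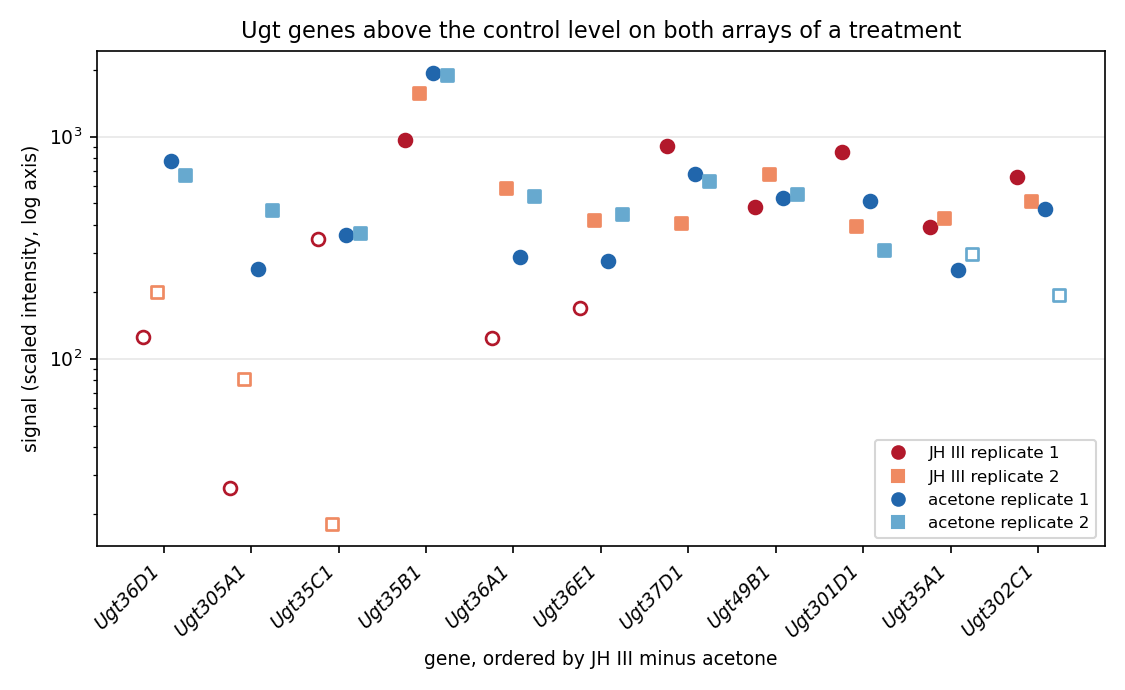
Signal (log axis) on each of the 4 arrays for the 11 Ugt genes above the control level on both arrays of at least 1 treatment, with red for JH III and blue for acetone, circles for replicate 1 and squares for replicate 2. Open symbols lie below the control level of their array. Ugt36D1 and Ugt305A1 have open symbols on both JH III arrays and filled ones on both acetone arrays.

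The other 22 members, with signals from 8.2 to 924, did not reach the control level on both arrays of either treatment. Among them Ugt37A3, named here after its values were seen, had the highest difference of the family. Its signal was 251 and 621 with JH III and 37.6 and 82.9 with acetone. Only JH III replicate 2 was above its control level, and the groups did not overlap. The difference was 1.78 ± 0.79 (SE, 95% interval 0.20 to 3.36, limma adjusted p = 0.636), and no fold was bounded because JH III replicate 1 lay below the control level. Its neighbour in the RefSeq table, Ugt37A2, was below the level on all arrays, with 74.6 and 83.7 against 36.9 and 43.9, and was not tested.

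Within the group of weak genes 8 more exceeded the control level on 1 or 2 arrays. On JH III replicate 1 alone, Ugt37E1 (428) and Ugt49B2 (388) were above it, and on JH III replicate 2 alone Ugt303A1 (290) was. Ugt37A1 and Ugt317A1 were above it on replicate 1 of both treatments. Ugt317A1 had the widest gap between JH III arrays of all members, with signals of 924 and 74.0 against 534 and 264 with acetone. Ugt303B3, Ugt316A1 and Ugt49C1 were above it on JH III replicate 2 and acetone replicate 1.

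The 13 members below the control level on every array had signals from 8.2 to 305.6. They were Ugt302E1, Ugt302K1, Ugt303B1, Ugt303B2, Ugt304A1, Ugt307A1, Ugt35E1, Ugt35E2, Ugt36F1, Ugt37A2, Ugt37B1, Ugt37C1 and Ugt37C2. Both treatments were below background for them, so a difference listed for 1 of these genes is the fitted value and no direction of the transcript.

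Over the whole family, 20 of 33 differences were positive (60.6%, against 57.8% of all named genes), and 18 were after quantile normalization or median centring. The median difference was 0.39, with single values from -1.73 to 1.78, against 0.12 for all named genes. With median centring, which moved the median of all named genes to -0.12, the family median was 0.15, and without acetone replicate 1, the array of its own chip lot, it was 0.21. The 2 treatments did not overlap for 16 members, 12 higher and 4 lower with JH III, where 23.2% of named genes were higher and 14.2% lower in this way. The family's shares were 36.4% and 12.1%.

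Of the 22 weak members 72.7% had positive differences, against 68.1% of weak named genes, and of the 11 above the control level on both arrays of a treatment 36.4% did, against 48.0% of such named genes. The family's split by signal thus ran the same way as that of all genes on the array. Of the 22 that were not above the control level on both arrays of a treatment, 10 were higher without overlap (45.5%) and 0 lower, against 24.6% and 7.11% of 5291 named genes of that kind. Of the 11 that were above it, 2 were higher without overlap and 4 lower, against 21.9% and 21.0% of 5552 named genes of that kind, and their median difference was -0.29. The genes of both kinds were divided by the same signals that give the differences, so these counts are a description.

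**Figure D3:**
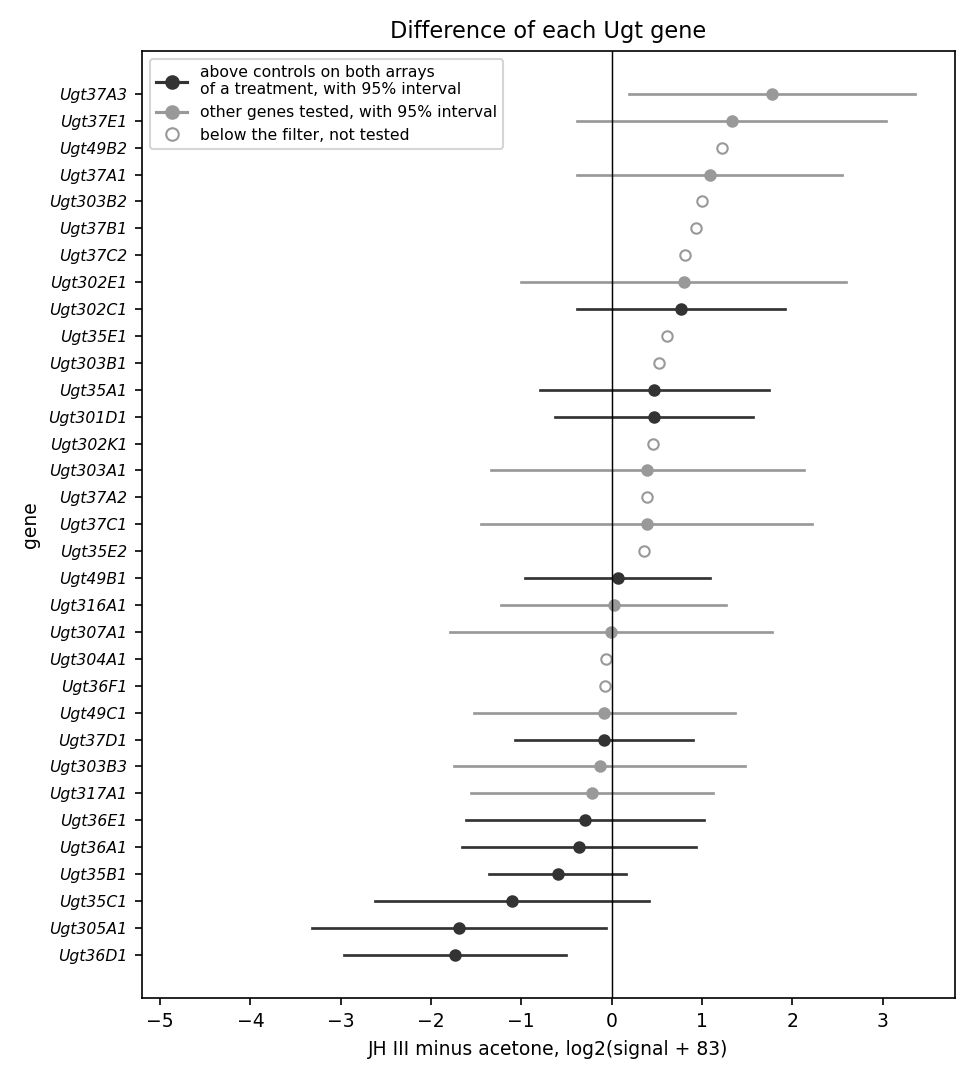
Log2 difference (JH III minus acetone) of each of the 33 Ugt genes, with limma's 95% interval for the 22 genes tested. Dark symbols are the 11 genes above the control level on both arrays of a treatment, grey ones the others, and open ones the 11 below the filter. The intervals of Ugt36D1, Ugt305A1 and Ugt37A3 leave out 0, and none of the 3 passed after adjustment.

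**Figure D4:**
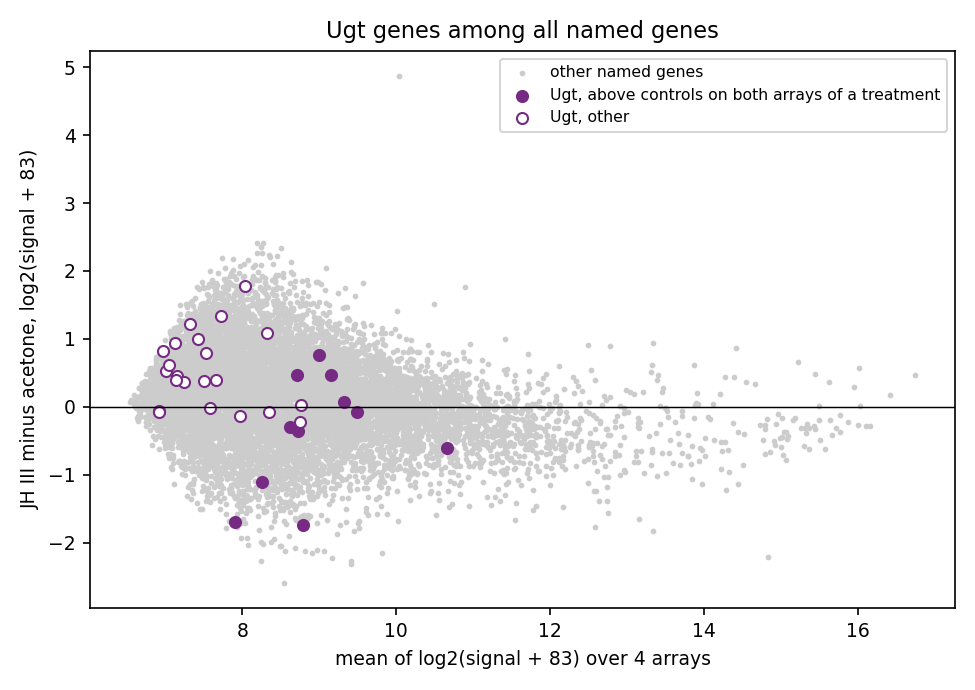
Log2 difference (JH III minus acetone) against the mean log2 level over the 4 arrays for all 10843 named genes (grey) and the 33 Ugt genes (purple, filled where above the control level on both arrays of a treatment). Open purple symbols lie mostly at the left, where signals are weak, and above 0. No Ugt gene lies outside the cloud of other genes.

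Replicates of the hormone group differed more than those of the control group in this family. The gap between replicates, in log2 units, had a median of 0.96 over the 33 members with JH III and of 0.32 with acetone, against 0.57 and 0.46 for all named genes. It was wider with JH III in 25 of the 33 (75.8%, against 56.3% of all named genes). In 24 of the 33 (72.7%) the gap within at least 1 treatment was larger than the difference between treatments, close to the 76.4% of all named genes. No test was made of these gaps.

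By subfamily, fitted differences were positive in 7 of the 8 Ugt37 genes, of which 4 were below the control level on all arrays and 3 above it on some. Of all named genes below the level on all arrays 72.0% had positive values, and nothing is read from this count about the subfamily. The 1 Ugt37 gene above the level on both arrays of a treatment, Ugt37D1, had the negative value. Of the 3 Ugt302 genes, which follow each other in the RefSeq table, Ugt302C1 was above the level on both arrays of a treatment, and Ugt302E1 and Ugt302K1 were below it throughout. In the run of 6 neighbours from Ugt35E1 to Ugt303A1, Ugt35A1 and Ugt35B1 were the 2 genes above it on both arrays of a treatment. Their differences had opposite signs, and the difference between them was not tested.

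A broad list of genes for sugar donors and related donors, not all of them for UDP-sugars, held 19 genes. Of these 15 were measured and 14 tested, and limma called 0 in each direction. Their median difference was -0.10, with 7 positive and 8 negative values. The treatments did not overlap for 3 higher (20.0%) and 5 lower genes (33.3%), against 23.2% and 14.2% of all named genes. At an unadjusted p under 0.05, where 7.29% of all probe sets tested stood in either direction, there was 1, Pgm1, the phosphoglucomutase that makes glucose-1-phosphate, the precursor of UDP-glucose. Its signal was 76.5 and 630 with JH III and 994 and 1092 with acetone (-1.74 ± 0.55 SE, limma adjusted p = 0.325). Both JH III arrays were lower, JH III replicate 1 by far, and without that replicate the difference was -0.66. It passed under 1 alternative, the crossed replicate block (adjusted p = 0.0487), which was chosen after seeing the data. UGP, which makes UDP-glucose, had 1843 and 2753 against 2777 and 2987 (-0.34 ± 0.35 SE), and sgl, which oxidises it to UDP-glucuronate, had 678 and 370 against 713 and 957 (-0.63 ± 0.49 SE). In both genes the groups did not overlap and neither passed. Galt (-0.75) and Galk (-0.69), enzymes of galactose use, were also lower without overlap. In the other direction nst (1.36), sll (0.66) and Gfat2 (0.53) were higher without overlap, and none of these passed. For nst, at 252 and 398 with JH III and 63.1 and 84.0 with acetone, JH III replicate 2 alone was above the control level.

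Regulators of detoxification genes and other conjugation or export genes gave 0 calls by limma as well. Of all probe sets tested, 7.29% had an unadjusted limma p under 0.05 in either direction. Among 10 regulators, 9 of them tested, the median difference was 0.26 and 1 gene had such a p. This was Keap1, the inhibitor of the stress-response factor CncC, with signals of 997 and 409 with JH III and 226 and 174 with acetone (1.37 ± 0.62 SE, limma adjusted p = 0.636). Both JH III arrays were higher, and without JH III replicate 1 the difference was 0.80. For cnc itself the groups overlapped (0.33 ± 0.70 SE), as they did for Hr96, a nuclear receptor of the xenobiotic response (-0.74 ± 0.75 SE). Hr96 was below the control level on both JH III arrays (119 and 193) and above it on both acetone arrays (166 and 545). ERR, above the level on all arrays, was higher without overlap (0.84 ± 0.58 SE) and did not pass. Of the regulators 2 were higher without overlap (20.0%) and 0 lower, against 23.2% and 14.2% of all named genes. Among the 12 measured conjugation and export genes, 11 of them tested, the median was -0.08 and 1 had such a p. This was Jheh2, an epoxide hydrolase of the family that breaks down juvenile hormone, with 1655 and 2036 against 4408 and 3128 (-0.98 ± 0.35 SE, limma adjusted p = 0.473). Both JH III arrays were lower than both acetone arrays. The exporter gene Mdr50 was below the control level on both JH III arrays and above it on both acetone arrays. Its signals were 320 and 160 with JH III against 694 and 406 with acetone. Against the control level its measured signal was at least 1.78-fold lower, with the spread between arrays left out. The log2 difference of Mdr50 was -0.98 ± 0.62 (SE, 95% interval -2.22 to 0.26, limma adjusted p = 0.767). That interval includes a rise.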

How the data were processed

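Each array came as 1 linear intensity per probe set, scaled by the authors (2% trimmed means of 500.06 to 500.1 in the deposited table). Which software summarised the probe pairs was not stated in the sources used here. Array type and chip lot were read per the file headers. The table held 14010 probe sets, 44 of them controls. Log2(signal + 83) was fitted with limma 3.58.1 in R 4.3.3 (lmFit, eBayes with a trend, 2 residual degrees of freedom per probe set, 66.9 after moderation). The p-values measure the spread between these pools and arrays, most of it borrowed from other probe sets. Fold bounds raise each value below the control level to that level, with no pseudocount. Tables were read with pandas 2.3.3 in Python 3.11.15 and plotted with matplotlib 3.10.9.

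Members and lists were chosen with earlier results of these data known. Genes above the control level on both arrays of a treatment were named with all values, the others by range, and list genes where the unadjusted p was under 0.05. UGP, sgl, Galt, Galk, nst, sll, Gfat2, cnc, Hr96, ERR, Mdr50, alpha-Est2, St4 and some weaker Ugt genes were added after their values were seen. Groups and replicate numbers came from the titles. The deviations of same-numbered arrays from their group means correlated at -0.11 over probe sets, so the numbers were not taken as pairs. Of 2 chip lots, 1 held acetone replicate 1 alone.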

Additional observations from a re-analysis of the deposited data

How the results depend on the processing

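Alternatives were pseudocounts of 1 and 256, quantile normalization, median centring, no filter or a 50% filter, eBayes without a trend, the t-test the labels name, the replicate block, the chip lot as a block and each array left out. No Ugt gene was called under any of them (lowest adjusted p 0.181). Over the whole array the 17 calls became 10 with pseudocount 256, 2 with quantile normalization, median centring, no filter, the 50% filter or the replicate block, 4 with the chip lot as a block, 0 without a trend or by the t-test, and 3 to 36 with 1 array left out (3 without acetone replicate 1 or JH III replicate 1, and 36 without acetone replicate 2). A crossed replicate block, chosen after seeing the data, gave 109 probe sets and 0 Ugt genes, with Pgm1 the 1 called gene of the 3 pathway lists. The number of Ugt genes above controls was 11, and 23 above the controls' median or 4 with all 4 arrays required. The family median of 0.39 was -0.29 over those 11 alone. For the 12 named members, 8 alternatives that can change the log2 difference itself were counted, and of their 96 values 88 kept their direction and 8 turned. The chip lot as a block was not counted among the 8, since its differences equalled those without acetone replicate 1. Ugt49B1 was -0.12 with quantile normalization and -0.17 with median centring, and lay between -0.14 and 0.28 with 1 array left out. With 1 array left out Ugt301D1 lay between -0.0087 and 0.95, Ugt36A1 between -1.21 and 0.49, Ugt36E1 between -0.79 and 0.20, and Ugt37D1 between -0.59 and 0.43. A lone array of a treatment was assumed to vary like the others. The causes were not tested. Signals near the control level limit 29 of the 33 genes, which were below it on at least 1 array.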
